A study of Mus musculus with 12 samples.

Results

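The keratin genes described here are the 53 protein-coding genes of the deposited count table whose name is Krt followed by a number, of 54532 genes in all. They were sorted by textbook expression into 4 simple epithelial keratins (Krt7, Krt8, Krt18 and Krt19), 19 epidermal keratins, 24 hair keratins, 4 other keratins of simple or mixed epithelia (Krt20, Krt23, Krt80 and Krt222) and 2 left unclassed (Krt42 and Krt88). By sequence type, 28 are acidic type I and 25 basic type II keratins. All type I genes but Krt18 lie on chromosome 11, between positions 99232761 and 100269871 of the mm10 build. All type II genes lie on chromosome 15, from Krt80, which starts at 101347444, to Krt8, which ends at 102004482, and Krt18 starts at 102028180 beside Krt8.

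Keratins are the intermediate filament proteins of epithelial cells, and a filament forms only from a type I and a type II chain together. Krt8 and Krt18 form the filaments of single-layered epithelia and are joined there by Krt7 and Krt19. Krt5 and Krt14 form those of the basal layer of the epidermis, Krt1 and Krt10 replace them as keratinocytes differentiate, and Krt6, Krt16 and Krt17 are known for their rise in wounded or inflamed skin. The hair follicle has its own set: Krt25 to Krt28 and Krt71 to Krt73 build its inner root sheath, Krt75 its companion layer, and the Krt31 to Krt40 and Krt81 to Krt87 groups the hair shaft. Melanoma cells are of neural crest origin and use mainly vimentin.

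RNA was measured in 12 bulk libraries from tumours of B16F10 cells, a pigmented mouse melanoma line that was wild type for Trex1 in both groups. The 6 iKO libraries came from tumours in Trex1 fl/fl hosts and the 6 Ctrl libraries from tumours in hosts with 1 floxed and 1 wild-type Trex1 copy. Trex1 encodes a DNA exonuclease of the cytosol. All hosts were male, aged 8 to 12 weeks, and carried a tamoxifen-inducible Cre (CreERT2) at the Rosa26 locus, which is active in most cell types, so the deletion was not aimed at 1 kind of host cell. All hosts had 1 mg of tamoxifen on each of 3 days from day 5 after the cells were placed in the skin of both legs, and tumours were taken on day 14. The tumours were digested and sorted against CD45, the surface marker of leukocytes, and CD31, that of endothelium. The labels call the sorted cells negative for both, whereas the protocol asks for 1 or the other. The labels do not tie libraries to mice, so libraries may share a host, and p-values measure only the spread between these libraries.

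Libraries held 29.8 to 35.5 M counts in iKO and 34.3 to 45.8 M in Ctrl. Levels are given as CPM (counts over the library total, times 1e6) scaled by TMM factors, and 3 counts, the most that a count of 0 allows, equal 0.0655 to 0.101 CPM in a library. Low counts were even numbers more often than odd ones (66.7 to 69.3% of values from 1 to 20), so a few counts can come from fewer fragments. Floors and counting intervals take each count as its own fragment and leave out the spread between libraries. Where fragments were counted more than once, the intervals are too narrow and the least fold changes given from a floor are too high. Trex1 had 0 counts in all 12 libraries, so it does not check the labels. Melanocyte markers dominated all libraries, with a summed level of 15712 to 22551 CPM in iKO and 22647 to 23034 CPM in Ctrl, while leukocyte markers summed to 138 to 1772 CPM in iKO and 29.2 to 169 CPM in Ctrl despite the sort. Xist, the RNA of the inactive X chromosome in female cells, stood at 219 CPM in iKO 2 and 117 CPM in iKO 3 and at no more than 8.38 CPM in the other 10 libraries, although the hosts are labelled male. Results are therefore given with and without iKO 2, which also stood apart in its keratins, and without iKO 2 and iKO 3 together where that changes them.

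The promoters of 5 keratins show the classes that the results turn on: Krt71, Krt25 and Krt27 of the inner root sheath, Krt5 of the basal epidermis and Krt18 of simple epithelia. Each runs 5′ to 3′ on the gene's strand from 250 bases before to 50 bases after the RefSeq start (GRCm38.p6), and capitals mark TATAAA, the TATA box motif. The regions are chr15:101743048-101743347 (minus strand) for Krt71, chr11:99322902-99323201 (minus) for Krt25, chr11:99351069-99351368 (minus) for Krt27, chr15:101712856-101713155 (minus) for Krt5 and chr15:102027966-102028265 (plus) for Krt18.
Krt71: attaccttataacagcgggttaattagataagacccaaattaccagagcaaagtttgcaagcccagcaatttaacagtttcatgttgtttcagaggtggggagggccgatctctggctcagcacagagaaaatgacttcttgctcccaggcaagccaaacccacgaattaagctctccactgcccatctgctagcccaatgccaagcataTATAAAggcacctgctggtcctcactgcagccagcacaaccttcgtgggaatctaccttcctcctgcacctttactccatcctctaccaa
Krt25: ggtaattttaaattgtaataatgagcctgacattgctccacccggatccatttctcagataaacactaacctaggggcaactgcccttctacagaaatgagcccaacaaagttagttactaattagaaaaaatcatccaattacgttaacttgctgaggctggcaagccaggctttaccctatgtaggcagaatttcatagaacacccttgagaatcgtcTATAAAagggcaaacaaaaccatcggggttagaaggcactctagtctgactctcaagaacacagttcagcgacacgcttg
Krt27: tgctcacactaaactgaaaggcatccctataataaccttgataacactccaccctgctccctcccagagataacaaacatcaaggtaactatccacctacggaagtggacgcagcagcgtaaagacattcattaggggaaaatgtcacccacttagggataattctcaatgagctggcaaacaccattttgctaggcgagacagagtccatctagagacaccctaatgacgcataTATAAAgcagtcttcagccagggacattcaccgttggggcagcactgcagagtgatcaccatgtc
Krt5: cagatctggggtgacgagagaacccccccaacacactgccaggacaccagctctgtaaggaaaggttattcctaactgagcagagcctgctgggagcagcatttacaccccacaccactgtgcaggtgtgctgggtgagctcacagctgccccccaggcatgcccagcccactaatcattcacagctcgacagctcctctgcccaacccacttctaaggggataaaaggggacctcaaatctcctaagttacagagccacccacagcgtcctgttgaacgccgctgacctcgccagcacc
Krt18: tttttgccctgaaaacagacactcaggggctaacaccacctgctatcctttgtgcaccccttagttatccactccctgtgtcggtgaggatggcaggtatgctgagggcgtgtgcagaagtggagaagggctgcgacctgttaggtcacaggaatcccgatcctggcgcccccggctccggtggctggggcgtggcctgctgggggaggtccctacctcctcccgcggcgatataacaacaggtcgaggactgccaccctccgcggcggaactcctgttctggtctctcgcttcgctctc
The motif begins 40 bases before the listed start in Krt71, 30 bases before it in Krt25 and 15 bases before it in Krt27. On either strand, TATAAA was found in 13.6% of the 32851 RefSeq mouse promoters of this length and in 19 of the 37 listed keratin promoters (51.4%), which belong to 36 of the 53 genes. It was in 13 of 18 hair keratin promoters (72.2%), including all 7 of the inner root sheath. In Krt72 of the inner root sheath and Krt84 of the hair shaft the only match was on the reverse strand. The motif was in 3 of 13 epidermal promoters (23.1%) and in 1 of 3 simple ones (33.3%). Some listed starts lie inside the deposited gene, by 1518 bases in Krt14, 1360 in Krt7 and 989 in 1 of the Krt13 windows. These windows do not reach the outermost start, so the motif was not looked for there in Krt14 and Krt7. In Krt8, listed 140 bases inside, the forward match begins 1 base before the listed start. CTTTGA, the core read by TCF/LEF factors of the Wnt pathway, was in 7 of 18 hair keratin promoters (38.9%) and in 16.0% of all promoters. TGANTCA, the AP-1 motif, was in 2 of 13 epidermal promoters (15.4%), in 0 of 18 hair promoters and in 7.81% of all promoters. Those 2 epidermal promoters both belong to 1 gene, Krt13, which had 6 counts in iKO and 0 in Ctrl. These matches describe the letters of the windows and do not mark binding.

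Keratin RNA was scarce in most libraries. The 53 genes together took 949, 19384, 1498, 1027, 747 and 910 counts in iKO 1 to 6 and 889, 695, 725, 595, 847 and 863 counts in Ctrl 1 to 6. As summed levels these were 30.6, 618, 42.4, 34.8, 22.0 and 27.0 CPM in iKO and 19.0, 16.2, 19.1, 17.3, 23.3 and 18.9 CPM in Ctrl. The library iKO 2 held 79.1% of all keratin counts of the iKO group, and only iKO 5 lay inside the Ctrl range. In number, 27, 45, 33, 20, 16 and 21 keratins had a count in iKO 1 to 6, against 28, 24, 24, 27, 28 and 27 in Ctrl 1 to 6. Of the 47 keratins with a count anywhere, 41 were highest in iKO 2, among them all 24 hair keratins. Krt2, Krt4, Krt12, Krt24, Krt76 and Krt88 had no count in any library. In bulk RNA, fewer cells of a type and less RNA per cell cannot be told apart.

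**Figure D1:**
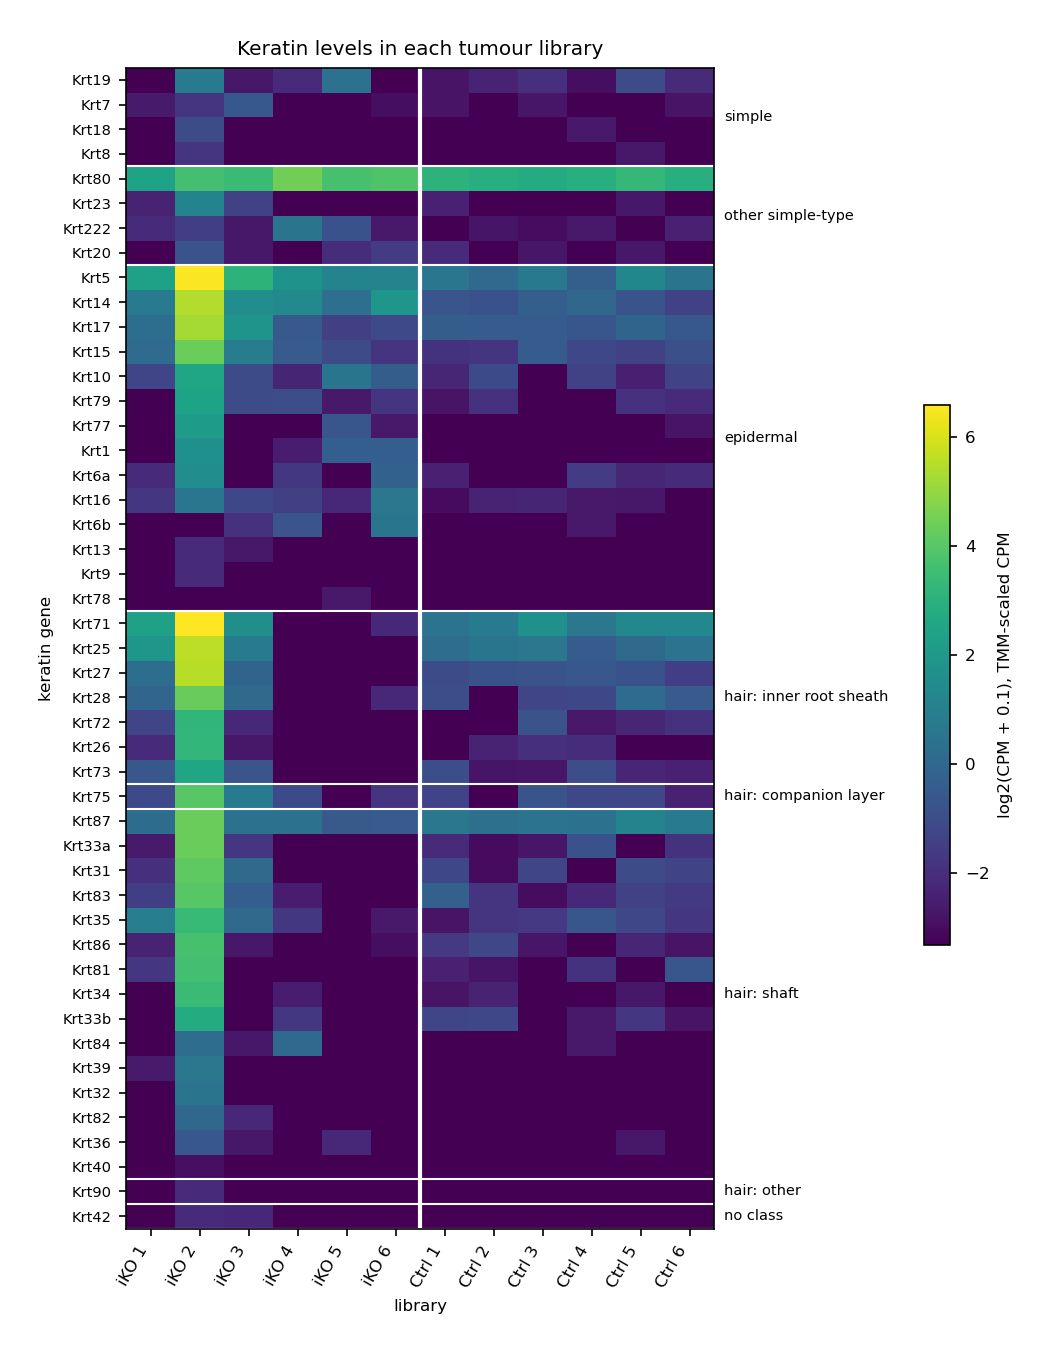
Level of each of the 47 keratins with a count, as log2 of TMM-scaled CPM plus 0.1 (colour), in iKO 1 to 6 (left) and Ctrl 1 to 6 (right), ordered by class. The column of iKO 2 is bright in nearly all epidermal and hair rows, the inner root sheath rows are dark in iKO 4, iKO 5 and iKO 6, and Krt80 is seen in all 12 libraries.

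After the low-count filter, 13 keratins could be tested: Krt80, 5 epidermal and 7 hair keratins, and none of the 4 simple ones. Of these 13, 6 rose in iKO by edgeR's quasi-likelihood test (adjusted p under 0.05 over all 16164 tested genes) and none fell, where 25.0% of all tested genes rose and 21.4% fell. The 6 were all 5 tested epidermal keratins (Krt5, Krt10, Krt14, Krt15 and Krt17) and Krt80. Without iKO 2, 3 of 13 rose (Krt5, Krt14 and Krt80) and none fell, with 23.0% of 16318 genes rising and 19.3% falling. The 3 of 13 is near the share of all tested genes that rose in that fit. Over the 13 keratins the median log2 fold change was 3.49 with iKO 2 and 0.72 without it, and over all tested genes it was 0.023 and 0.019. For the epidermal keratins the median was 3.57 with iKO 2 and 1.53 without it. For the 7 hair keratins it was 3.11 with iKO 2 and -0.17 without it, and none of them passed the test in either fit. The calls were fewer with other tools. DESeq2 called Krt80 and Krt10 and gave no p-value for the other 11, so it did not judge these. By limma voom none was called, with 2 of the 13 at an unadjusted p under 0.05.

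**Figure D2:**
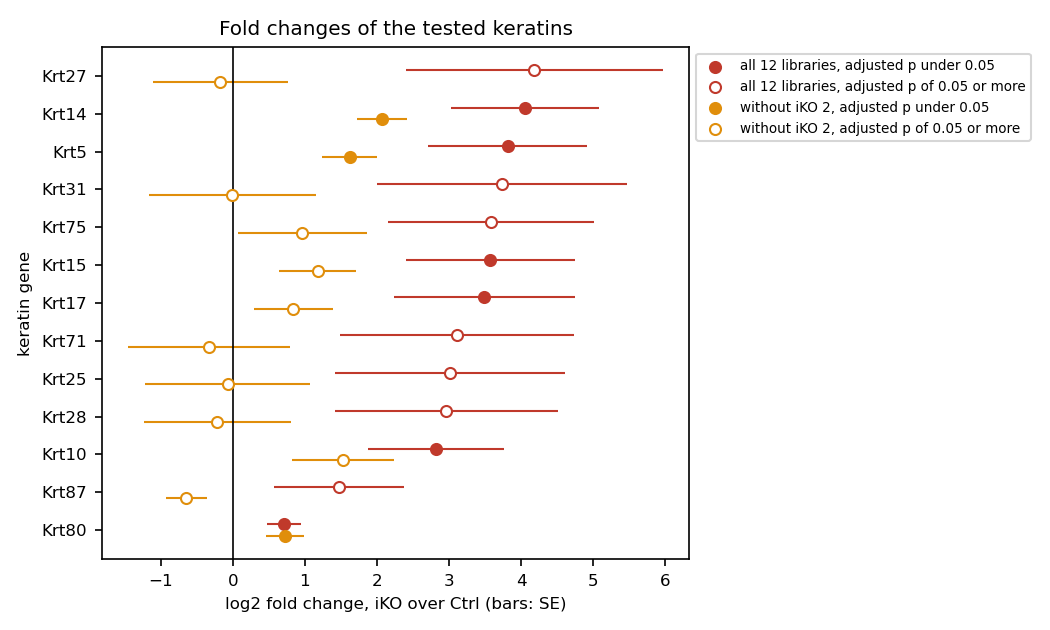
Log2 fold change of iKO over Ctrl for the 13 tested keratins (points, with SE bars), from all 12 libraries (red) and without iKO 2 (orange), filled where edgeR's adjusted p is under 0.05. Krt14, Krt5 and Krt80 are filled in both fits, and the hair keratins Krt71, Krt25, Krt27, Krt28 and Krt31 lie close to 0 without iKO 2.

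The simple epithelial keratins were close to absent. Summed over Krt7, Krt8, Krt18 and Krt19, the level was 0.0646, 2.42, 0.623, 0.136, 1.24 and 0.0296 CPM in iKO 1 to 6 and 0.0855, 0.0934, 0.211, 0.0873, 0.441 and 0.175 CPM in Ctrl 1 to 6. The mean was 0.753 ± 0.941 CPM in iKO and 0.182 ± 0.137 CPM in Ctrl (SD, n = 6 each), and 0.418 CPM in iKO without iKO 2. The groups overlapped: iKO 2, iKO 3 and iKO 5 lay above all Ctrl libraries, and iKO 1 and iKO 6 below them. Krt8 (ENSMUSG00000049382, chr15 101996698 to 102004482, minus strand) had 6 counts in iKO, all in iKO 2, and 2 in Ctrl, both in Ctrl 5. The ratio, 3.76, had a 95% counting interval of 0.672 to 38.1. Its partner Krt18 (ENSMUSG00000023043, chr15 102028180 to 102032027, plus strand) had 12 counts in iKO, all in iKO 2 too, and 2 in Ctrl, both in Ctrl 4, a ratio of 7.51 (1.67 to 69.1). That interval takes each count as its own fragment and would be wider if fragments were counted more than once, so it does not show a difference. Without iKO 2 both genes of the pair had 0 counts in the iKO group.

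Krt19, a type I keratin of ducts and of hair follicle stem cells, held most simple keratin counts, with 0, 52, 2, 4, 42 and 0 counts in iKO 1 to 6 and 2, 4, 6, 1, 14 and 6 in Ctrl 1 to 6. It was high in iKO 2 and iKO 5 and undetected in iKO 1 and iKO 6, and its groups overlapped. Krt7, a type II keratin of ducts and glands, had 2, 6, 20, 0, 0 and 1 counts in iKO and 2, 0, 2, 0, 0 and 2 in Ctrl, and it was iKO 3 that stood out. Refitted without the low-count filter, none of the 4 passed: edgeR's adjusted p was 0.244 for Krt19, 0.168 for Krt7, 0.276 for Krt18 and 0.474 for Krt8. At this depth no difference in the simple keratins could be shown.

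The epidermal keratins were higher in iKO in all libraries when summed. Their level was 9.30, 218, 17.6, 8.58, 6.66 and 11.2 CPM in iKO 1 to 6 and 2.97, 2.85, 3.58, 3.08, 4.24 and 3.22 CPM in Ctrl 1 to 6. All iKO libraries lay above all Ctrl libraries, iKO 2 far above. The mean was 45.2 ± 84.7 CPM in iKO (n = 6), 10.7 ± 4.19 CPM in iKO without iKO 2 (n = 5) and 3.32 ± 0.516 CPM in Ctrl (SD, n = 6).

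Krt14 (ENSMUSG00000045545, chr11 100203162 to 100207548, minus strand), the type I keratin of basal keratinocytes, had 1.61, 43.9, 2.78, 2.58, 1.12 and 3.56 CPM in iKO 1 to 6 and 0.513, 0.467, 0.711, 0.873, 0.496 and 0.284 CPM in Ctrl 1 to 6. Each iKO library was above each Ctrl library, with iKO 2 more than an order of magnitude above the rest. Krt14 rose by 4.05 ± 1.02 on the log2 scale (SE, edgeR adjusted p = 0.00795), by 2.07 ± 0.345 without iKO 2 (0.000464) and by 1.99 ± 0.374 without iKO 2 and iKO 3 (0.00152). It was the only 1 of the 13 tested keratins whose groups did not overlap, while 11.8% of all tested genes had iKO wholly above Ctrl and 11.1% wholly below. Of its transcript, 7.9% lies in exact matches of at least 100 bases to another gene, here Krt16.

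Krt5 (ENSMUSG00000061527, chr15 101707070 to 101712898, minus strand), the type II partner of Krt14, had 4.94, 93.0, 8.30, 3.26, 2.09 and 2.04 CPM in iKO and 1.37, 0.934, 1.50, 0.698, 2.23 and 1.31 CPM in Ctrl. The groups overlapped: 4 of 6 iKO libraries were above all Ctrl libraries, and iKO 5 and iKO 6 lay below Ctrl 5. Krt5 rose by 3.82 ± 1.10 (SE, edgeR adjusted p = 0.0162), by 1.62 ± 0.385 without iKO 2 (0.00445) and by 1.20 ± 0.339 without iKO 2 and iKO 3 (0.0141). Exact matches of at least 100 bases to other genes, the longest of 140 bases to Krt6a, covered 17.2% of its transcript. Both calls of the pair held when any single library was left out, with adjusted p up to 0.0191 for Krt14 and 0.0378 for Krt5.

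Krt15 (ENSMUSG00000054146, chr11 100131758 to 100135928), a type I keratin of basal cells and of the follicle's bulge, had 1.00, 20.7, 1.70, 0.611, 0.383 and 0.178 CPM in iKO and 0.171, 0.187, 0.632, 0.349, 0.276 and 0.437 CPM in Ctrl. Only iKO 1, iKO 2 and iKO 3 were above all Ctrl libraries. Its log2 fold change of 3.57 ± 1.17 passed with all libraries (SE, edgeR adjusted p = 0.0275) but was 1.18 ± 0.533 without iKO 2 (0.0908). The call was also lost without Ctrl 1, Ctrl 2, Ctrl 4 or Ctrl 5, with adjusted p of at least 0.0518.

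Krt17 (ENSMUSG00000035557, chr11 100256217 to 100261029), known in the follicle's outer root sheath and in wounded skin, had 1.10, 37.6, 3.43, 0.577, 0.265 and 0.356 CPM in iKO and 0.663, 0.630, 0.632, 0.524, 0.827 and 0.569 CPM in Ctrl. The same 3 iKO libraries were above all Ctrl libraries, and iKO 5 and iKO 6 were below them. Its log2 fold change was 3.49 ± 1.26 (SE, edgeR adjusted p = 0.0420), 0.84 ± 0.547 without iKO 2 (0.238) and -0.16 ± 0.406 without iKO 2 and iKO 3 (0.777). The call did not survive leaving out iKO 2 or any 1 of the 6 Ctrl libraries (0.0656 to 0.238).

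Krt10 (ENSMUSG00000019761, chr11 99385254 to 99389364), the type I keratin of the suprabasal epidermis, had 0.323, 5.52, 0.397, 0.102, 1.36 and 0.652 CPM in iKO and 0.107, 0.373, 0, 0.291, 0.0827 and 0.306 CPM in Ctrl. Here 4 iKO libraries, among them iKO 5 and iKO 6, were above all Ctrl libraries. Krt10 rose by 2.82 ± 0.944 (SE, edgeR adjusted p = 0.0274), and its log2 fold change was 1.53 ± 0.711 without iKO 2 (0.0985). The call was also lost without Ctrl 1 or Ctrl 5 (0.0545 to 0.0985 over the 3 libraries).

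Low epidermal keratins outside the test were looked at after their values were seen. Krt1, the suprabasal partner of Krt10, had 0, 96, 0, 2, 23 and 23 counts in iKO 1 to 6 and 0 in all Ctrl libraries. That is at least 60.1-fold higher in iKO with 3 counts as the floor over the Ctrl group, and at least 23.9-fold without iKO 2. Like Krt10, Krt1 was detected in iKO 5 and iKO 6, at 0.678 and 0.682 CPM, where the inner root sheath keratins summed to 0 and 0.237 CPM. Krt77, a type II keratin of skin and sweat glands, had 157 counts in iKO, of which 137 were in iKO 2 and 18 in iKO 5, and 2 in Ctrl, a ratio of 98.3 (95% counting interval 26.8 to 819) that was 14.9 (3.63 to 132) without iKO 2.

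Krt16, the type I keratin of wounded and inflamed epidermis, had 0.194, 1.40, 0.340, 0.271, 0.118 and 1.42 CPM in iKO 1 to 6 and 0.0214, 0.0934, 0.105, 0.0582, 0.0551 and 0 CPM in Ctrl 1 to 6. All iKO libraries were above all Ctrl libraries, as in 11.8% of all tested genes, and iKO 6 was as high as iKO 2. The separation is narrow: the lowest iKO library, iKO 5, had 4 counts, and so did Ctrl 2 and Ctrl 3, which differed from it in library size. Without the low-count filter, the log2 fold change of Krt16 was 3.37 (edgeR adjusted p = 0.00216), where 14.1% of 29337 genes rose and 12.9% fell. Krt6b, a type II partner of Krt16, had 0, 0, 6, 15, 0 and 45 counts in iKO and 2 in Ctrl, a ratio of 41.3 (95% counting interval 11.0 to 348). The near-identical Krt6a had 4, 87, 0, 6, 0 and 25 counts in iKO and 22 in Ctrl. Krt6b was thus high in iKO 4 and iKO 6 and at 0 in iKO 2, where Krt6a was highest. The split between these genes is uncertain, since exact matches to other genes cover 65.3% of the Krt6a and 51.0% of the Krt6b transcript, and 34.7% of that of Krt16. Without the filter, Krt222, Krt77, Krt82, Krt84 and Krt6b were called besides Krt5, Krt14 and Krt16, while Krt80, Krt10, Krt15 and Krt17 were not (0.0532 to 0.0723).

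**Figure D3:**
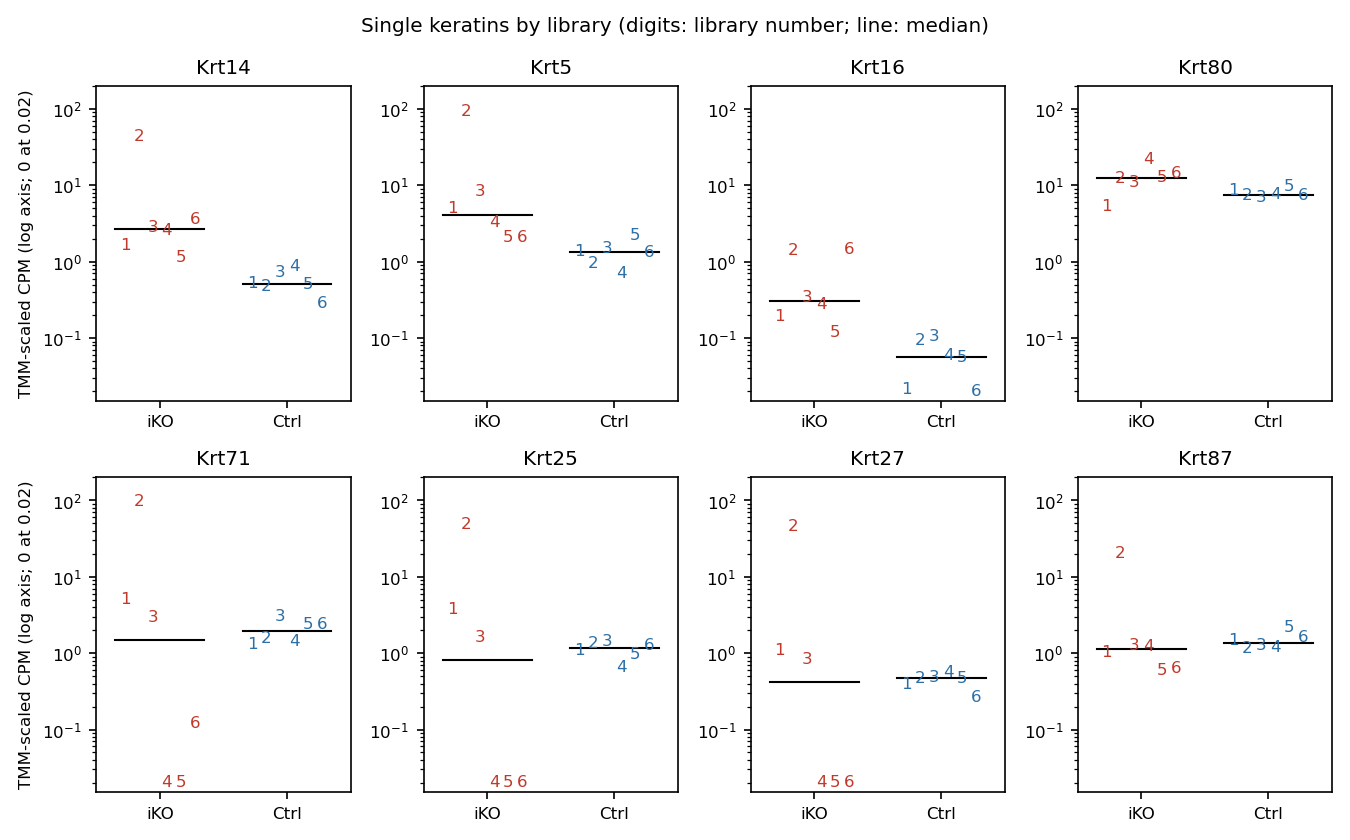
TMM-scaled CPM (log axis, 0 drawn at 0.02) of 8 keratins in iKO 1 to 6 (red digits, left) and Ctrl 1 to 6 (blue digits, right), with the group median as a line. Krt14 and Krt16 separate the groups, whereas Krt71, Krt25 and Krt27 run between 0 in iKO 4 and iKO 5 and 45.7 to 96.4 CPM in iKO 2, on either side of the Ctrl libraries.

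The hair keratins spread in both directions among the iKO libraries. Their summed level was 15.7, 383, 12.9, 3.09, 0.707 and 1.13 CPM in iKO 1 to 6 and 7.27, 5.86, 8.38, 6.52, 8.93 and 8.01 CPM in Ctrl 1 to 6. The libraries iKO 1, iKO 2 and iKO 3 lay above all Ctrl libraries and iKO 4, iKO 5 and iKO 6 below them. The mean was 69.4 ± 154 CPM in iKO (n = 6), 6.71 ± 7.06 CPM in iKO without iKO 2 (n = 5) and 7.49 ± 1.16 CPM in Ctrl (SD, n = 6). A count was seen for 16, 24, 17, 7, 2 and 6 of the 24 genes in iKO 1 to 6 and for 14 or 15 of them in each Ctrl library.

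The split was sharpest in the inner root sheath keratins, a subgroup set apart after the values were seen. Krt25, Krt26, Krt27, Krt28, Krt71, Krt72 and Krt73 together had 11.7, 234, 6.94, 0, 0 and 0.237 CPM in iKO 1 to 6 and 3.59, 3.48, 5.95, 3.58, 5.04 and 4.79 CPM in Ctrl 1 to 6. In counts, these were 362, 7341, 245, 0, 0 and 8 in iKO and 123 to 226 in Ctrl. All 7 genes were at 0 counts in both iKO 4 and iKO 5, which allows at most 3 counts each, whereas each Ctrl library had at least 5 of the 7. Of all keratin TPM, a level that takes gene length into account, the inner root sheath made up 43.9, 38.6, 20.4, 0, 0 and 1.50% in iKO 1 to 6 and 27.5 to 41.1% in Ctrl.

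Krt71 (ENSMUSG00000051879, chr15 101733949 to 101743109), a type II keratin of the inner root sheath, had 5.00, 96.4, 2.89, 0, 0 and 0.119 CPM in iKO and 1.28, 1.54, 3.06, 1.43, 2.40 and 2.38 CPM in Ctrl. Of its iKO counts, 92.0% were in iKO 2. Its log2 fold change was 3.11 (edgeR adjusted p = 0.141), and -0.33 without iKO 2 (0.839). Krt25 (ENSMUSG00000035831, chr11 99315516 to 99322951), a type I keratin of the same layer, had 3.74, 48.9, 1.59, 0, 0 and 0 CPM in iKO and 1.07, 1.33, 1.42, 0.640, 0.964 and 1.27 CPM in Ctrl. Both were highest in iKO 2, next in iKO 1, and at 0 in iKO 4 and iKO 5, and iKO 3 was above all Ctrl libraries in Krt25 but not in Krt71. Its log2 fold change was 3.01 (0.148), and -0.07 without iKO 2 (0.969). Krt27, the type I neighbour of Krt25, had 1.10, 45.7, 0.821, 0, 0 and 0 CPM in iKO and 0.262 to 0.553 CPM in Ctrl, with a log2 fold change of 4.18 (0.0774) and of -0.17 without iKO 2 (0.902). Krt28 had 0.839, 19.2, 0.963, 0, 0 and 0.119 CPM in iKO and 0 to 0.992 CPM in Ctrl, so only iKO 2 was above all Ctrl libraries.

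Hair shaft keratins were less even. Their sum was 3.68, 132, 4.33, 2.71, 0.707 and 0.711 CPM in iKO 1 to 6 and 3.38, 2.38, 1.92, 2.59, 3.55 and 3.13 CPM in Ctrl 1 to 6, so only iKO 5 and iKO 6 were below all Ctrl libraries. Krt87 had 1.03, 20.0, 1.25, 1.22, 0.589 and 0.622 CPM in iKO and 1.48, 1.17, 1.26, 1.19, 2.15 and 1.62 CPM in Ctrl. Unlike the inner root sheath genes it was detected in all 12 libraries, although 41.5% of its transcript lies in exact matches to other genes, the longest to Krt81. Its log2 fold change was 1.47 (edgeR adjusted p = 0.205), and -0.65 without iKO 2 (0.0814). Krt33a, Krt31, Krt83 and Krt35 stood at 20.3, 17.5, 16.1 and 10.1 CPM in iKO 2, at most 1.81 CPM in any other iKO library and at most 0.727 CPM in Ctrl. Krt31 had a log2 fold change of 3.73 (0.101) and of -0.0052 without iKO 2 (0.998). Krt75, of the companion layer, was at 16.2 CPM in iKO 2, 0 to 1.61 CPM in the other iKO libraries and 0 to 0.500 CPM in Ctrl. Its log2 fold change was 3.58 (0.0615), and 0.97 without iKO 2 (0.413), and it passed without iKO 5 (0.0372) or iKO 6.

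**Figure D4:**
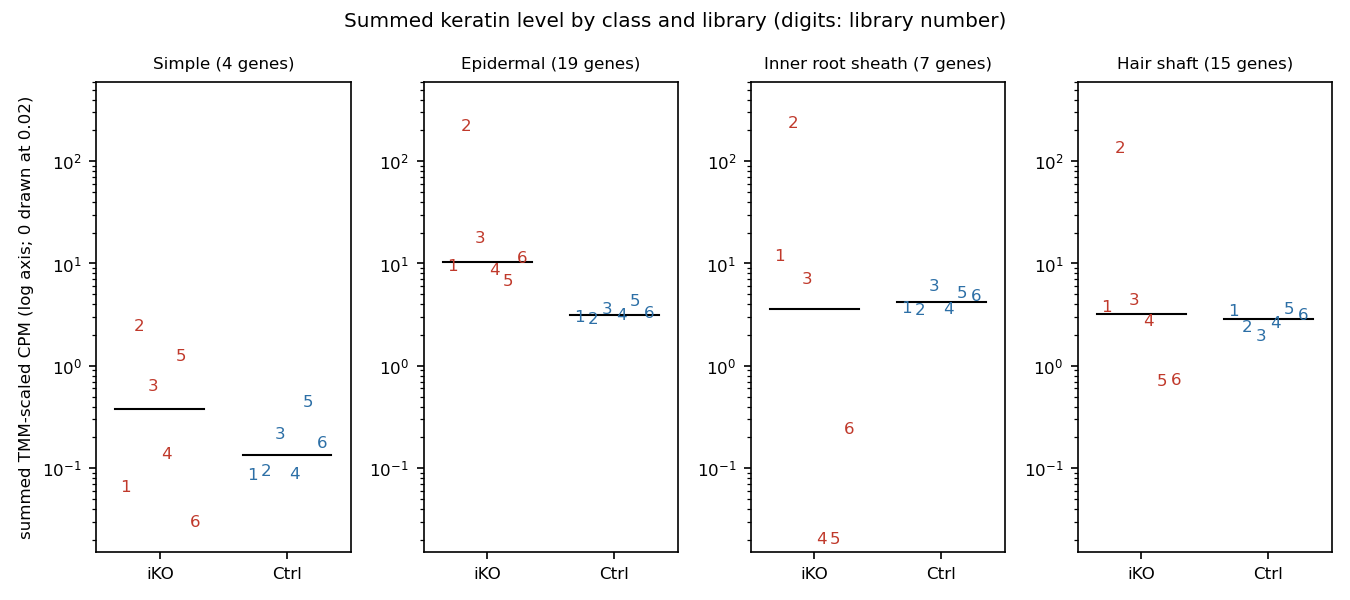
Summed TMM-scaled CPM (log axis, 0 drawn at 0.02) of the simple, epidermal, inner root sheath and hair shaft keratins in iKO 1 to 6 (red digits) and Ctrl 1 to 6 (blue digits), with medians as lines. Epidermal sums of iKO lie wholly above those of Ctrl (6.66 to 218 against 2.85 to 4.24 CPM), whereas inner root sheath sums of iKO lie on both sides of Ctrl.

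Within iKO 2 the leading keratins per length were Krt71 at 147 TPM, Krt5 at 141 TPM, Krt27 at 98.3 TPM, Krt14 at 83.2 TPM, Krt25 at 81.9 TPM and Krt17 at 80.9 TPM, so follicle and basal epidermal keratins stood at like levels. Type II keratins summed to 1.01, 0.780, 1.03, 2.02, 1.32 and 1.23 times the type I sum in TPM in iKO 1 to 6, and to 1.22 to 1.62 times in Ctrl. Only iKO 1, iKO 2 and iKO 3 had a ratio below all Ctrl libraries.

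Krt80, a type II keratin found in many epithelia, had another pattern over the libraries. Krt80 (ENSMUSG00000037185, chr15 101347444 to 101370162, minus strand) had 5.33, 12.4, 10.8, 21.7, 12.8 and 14.3 CPM in iKO 1 to 6 and 8.47, 7.38, 6.85, 7.57, 9.62 and 7.39 CPM in Ctrl 1 to 6. It was highest in iKO 4 and not in iKO 2, which held 15.6% of its iKO counts, and iKO 1 was below all Ctrl libraries while the other 5 were above. Leukocyte markers summed to 138, 902, 1003, 1772, 1283 and 1487 CPM in iKO 1 to 6, so like Krt80 they were highest in iKO 4, next in iKO 6 and lowest of the iKO libraries in iKO 1, and Ctrl 5 was the highest Ctrl library in both. Their part in the Krt80 values was not tested. Krt80 rose by 0.71 ± 0.241 (SE, edgeR adjusted p = 0.0274) and by 0.72 ± 0.261 without iKO 2 (0.0409), and the call was lost without iKO 4 (0.0625) or without Ctrl 6 (0.0517). In Ctrl it had the highest median TPM of the 3 keratins called in both fits, 3.90 TPM against 2.05 for Krt5 and 0.945 for Krt14. In iKO the medians were 6.45, 6.44 and 5.14 TPM. Of the exon bases of Krt80, 4.1% are shared with Gm35853 on the other strand, from which its reads cannot be told apart in unstranded libraries. Krt222, a keratin-like gene named here after its values were seen, was also highest in iKO 4, with 4, 8, 2, 39, 16 and 2 counts in iKO and 9 in all of Ctrl.

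Other genes of keratinocytes were followed in lists chosen with earlier results of these data known. Of the 12 keratinocyte markers, which hold no keratin, 9 were tested, 7 rose and none fell, with a median log2 fold change of 2.60, where 25.0% of all tested genes rose. Without iKO 2, 5 rose and none fell, with a median of 1.12, where 23.0% of all genes rose. Their sum was 32.3, 236, 33.2, 28.8, 28.2 and 24.0 CPM in iKO 1 to 6 and 19.8 to 23.1 CPM in Ctrl, so each iKO library was above all Ctrl libraries with TMM scaling. The groups overlapped without it, with 22.8 CPM in iKO 6 and 23.0 CPM in Ctrl 5, and in TPM, whereas the epidermal keratin sum separated the groups in all 3 units. Dsc3, a desmosomal cadherin, rose by 4.29 (edgeR adjusted p = 0.00985) and by 2.08 without iKO 2 (0.00299). Col17a1, a collagen of hemidesmosomes, rose by 3.70 (0.00772) and by 2.11 without iKO 2 (0.00557). Dsp, the desmosomal protein that anchors keratin filaments, rose by 2.96 (0.0230) and by 1.14 without iKO 2 (0.0109). Lgals7 and Sbsn, of the same list, did not pass in either fit. Lgals7 had the highest Ctrl mean of these markers (8.40 CPM). It stood at 0.34 with all libraries (0.450) and at -0.19 without iKO 2 (0.282). Sbsn stood at 0.59 (0.0518) and at 0.48 without iKO 2 (0.118). Trp63, the transcription factor that defines basal keratinocytes, had 39, 683, 41, 10, 0 and 7 counts in iKO 1 to 6 and 4 to 18 in Ctrl, so it was at 0 in iKO 5 alone. How far the number of keratinocytes in a tumour sample moved the keratins was not tested.

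Genes that hold keratins at junctions were followed too. Some of these lists share members with the keratinocyte markers, so their counts are not separate from those above. Trp63 and Col17a1 are also in the basal adhesion list, and Sfn, Dmkn, Sbsn, Lgals7, Krtdap and Lor in the barrier list. Among all tested genes, 25.0% rose and 21.4% fell, and without iKO 2 these shares were 23.0% and 19.3%. Of 20 desmosome and linker genes, 13 were tested, 9 rose and 1 fell, with a median of 1.71, and 7 rose and 1 fell without iKO 2, with a median of 0.87. The single fall passed in only 2 of the other 11 fits with 1 library left out, those without Ctrl 1 or iKO 4. Plec, which links filaments to junctions, rose by 1.44 (edgeR adjusted p = 2.37e-06) and by 1.45 without iKO 2. Dst, a linker of hemidesmosomes, rose by 0.81 (0.00237), and Pkp3, a desmosomal plaque protein, by 2.56 (0.00169). Dst was abundant, with a mean of 588 CPM in iKO and 336 CPM in Ctrl, whereas all 53 keratins summed to a mean of 19.0 CPM in Ctrl. Which cells its RNA came from was not tested. Of 12 basal adhesion genes, all tested, 9 rose and none fell, and 8 rose without iKO 2. Among these were Lamb3, a basement membrane laminin chain, by 1.96 (0.00379), and the abundant receptor Cd44, by 0.17 (0.0414, lost without iKO 3, iKO 4, iKO 5, iKO 6, Ctrl 1 or Ctrl 6). Of 28 epidermal barrier genes, 8 were tested, 4 rose and 1 fell, and 3 rose and 1 fell without iKO 2. Tgm1, the crosslinker of the cornified envelope, rose by 3.15 (0.000167), Dmkn by 2.50 (0.0167) and Sfn by 1.25 (0.0202), while Cdsn, a protein of corneodesmosomes, fell by 0.77 (0.00375). Lgals7, the most abundant of the list, had a log2 fold change of 0.34 (0.450), and of -0.19 without iKO 2.

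For simple epithelium beyond its keratins, 9 of 17 genes were tested, 5 rose and none fell, with 4 rising without iKO 2 and 8 without iKO 5. The share of all tested genes that rose was 25.0%, and 23.0% without iKO 2. St14, a membrane protease, rose by 3.31 (edgeR adjusted p = 0.000565), its inhibitor Spint1 by 2.22 (6.47e-05) and Muc1, a mucin, by 0.99 (0.0105), whereas Tjp3 had a log2 fold change of 0.17 (0.415). The adhesion protein Cdh1 rose by 1.06 (0.0408), a call that was lost without iKO 2 (0.116) and without iKO 3, iKO 4, Ctrl 1, Ctrl 4, Ctrl 5 or Ctrl 6. Of 16 epithelial transcription factors, 10 were tested, 5 rose and none fell, and 2 rose without iKO 2 or without any 1 Ctrl library except Ctrl 2. The 2 of 10 without iKO 2 is near the share of all tested genes that rose in that fit, 23.0%. Gata3, a factor of epidermis, follicle and lymphocytes, rose by 2.76 (0.000622), Tfap2a by 0.24 (0.0220) and Klf4 by 0.67 (0.0323). The call of Klf4 was lost without iKO 1, iKO 2 (0.0586), iKO 4, iKO 5 or any 1 Ctrl library except Ctrl 2. All 8 leukocyte markers rose too, and Gata3 and St14 are also known from some leukocytes. The part of leukocytes in the values of Gata3 and St14 was not tested.

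Hair follicle genes other than keratins shared the high value of iKO 2 with the hair keratins. Whether they shared the low values of iKO 4, iKO 5 and iKO 6 depended on the unit. Of 25 such genes, 2 were tested and neither passed, while 1 or 2 genes passed without any 1 library other than iKO 2 or iKO 3. Their sum was 7.29, 370, 21.6, 4.17, 2.95 and 2.96 CPM in iKO 1 to 6 and 2.61 to 5.69 CPM in Ctrl. The sum was thus far highest in iKO 2, next in iKO 3 and inside the Ctrl range in iKO 4, iKO 5 and iKO 6. In TPM, however, iKO 4, iKO 5 and iKO 6 (2.97, 2.31 and 2.27) lay below all Ctrl libraries (3.31 to 10.8). Tchh, the trichohyalin of the inner root sheath, stood at a log2 fold change of 3.87 (0.0530 by edgeR), and of 0.76 without iKO 2 (0.484), and passed without iKO 1, iKO 4, iKO 5 or iKO 6. Fibroblast markers also moved with the libraries, summing to 2563, 16359, 2045, 2495, 10608 and 636 CPM in iKO 1 to 6 and 2417 to 2755 CPM in Ctrl. They were high in iKO 2 with its high hair keratins and in iKO 5 with its hair keratins near 0. The part of fibroblasts, leukocytes or the makeup of the sorted cells in the keratin values was not tested.

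**Figure D5:**
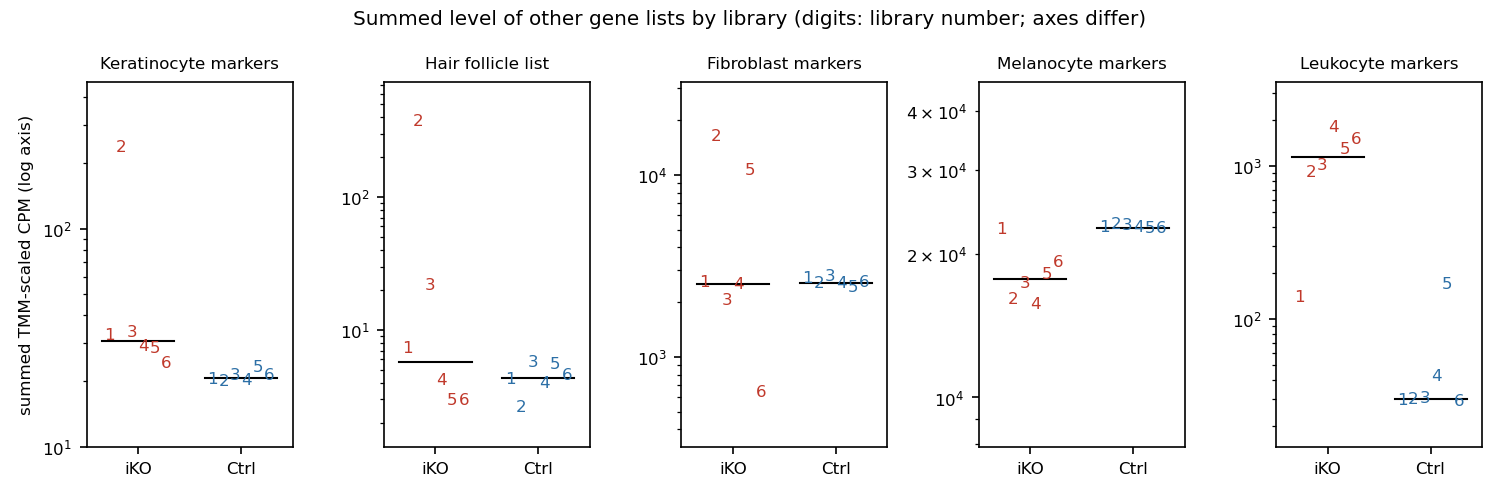
Summed TMM-scaled CPM (log axes with different ranges) of 5 gene lists without keratins in iKO 1 to 6 (red digits) and Ctrl 1 to 6 (blue digits), with medians as lines. Keratinocyte markers of iKO lie above those of Ctrl (24.0 to 236 against 19.8 to 23.1 CPM), a separation that is lost without TMM scaling, and the hair follicle list is highest in iKO 2 and iKO 3.

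The other intermediate filaments did not follow 1 direction. Of 16 such genes, 11 were tested, 5 rose and 3 fell, with a median of 0.089, and the counts without iKO 2 were the same. Both directions were also common over all tested genes, of which 25.0% rose and 21.4% fell. Vim, the filament of mesenchymal and melanoma cells, had 2585 ± 455 CPM in iKO and 1905 ± 143 CPM in Ctrl (SD, n = 6 each), and rose by 0.44 (edgeR adjusted p = 0.00348). Prph, a filament of peripheral neurons, rose by 1.43 (0.000774) and Lmna by 0.25 (0.00518). The nuclear lamins Lmnb1 and Lmnb2 fell by 0.51 (0.000147) and by 0.40 (0.000865).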

How the data were processed

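The authors deposited counts, whole numbers of reads per gene that were not normalized, for 6 iKO and 6 Ctrl libraries, with gene lengths and coordinates. Per the submitters' processing notes the build was mm10, while the aligner and counter are not given in the sources used. Libraries were made from poly-A RNA without strand, per the labels' protocols. No columns were unmapped (0). In R 4.3.3, edgeR 4.0.16 was fitted over all genes (robust quasi-likelihood test after TMM scaling, filterByExpr with minimum count 10 and minimum total 15), with group as the only term and Benjamini-Hochberg adjustment at 0.05. SEs are approximate: the absolute log2 fold change divided by the root of F. TPM used the deposited gene lengths. Exon overlaps came from GENCODE M21, in which all 53 keratins have the deposited coordinates, and exact transcript matches from blastn 2.17.0. On simulated counts (iKO against Ctrl, 16164 genes) the test recovered 83.3% of 66 genes changed by 1 on the log2 scale, and 94.0% of 67 changed by 2. These shares were not split by expression level. They therefore do not tell how often a change would be found in genes as scarce as most keratins outside iKO 2.

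Named genes are the 4 simple keratins, keratins past the threshold with or without iKO 2, the 10 other keratins with the highest mean CPM, and from each list the 3 members with the smallest p past the threshold and the 2 with the highest mean. A gene that met this rule is not reported here. Marker lists of muscle, fat and endothelium were also followed. The members and lists were chosen with earlier results of these data known. Alternatives were other scalings, DESeq2 1.42.0, limma 3.58.1 (voom), no filter, the replicate number as a block, and leaving out libraries.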

Additional observations from a re-analysis of the deposited data

Results flagged for a closer look

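In 48 sets of 6 libraries (a named keratin or class in a group), 1 library stood far from the rest in 25 by Dixon's test at the 95% level. Chance flags about 1 in 20 sets, but that rate does not apply here, since some keratins were picked by a mean that iKO 2 raises, and since the other 5 iKO libraries had no count of Krt8 or Krt18. The flags are a description. In 19 of the 25 it was iKO 2. These were Krt8 (0.191 CPM), Krt18 (0.383), Krt5 (93.0), Krt14 (43.9), Krt17 (37.6), Krt15 (20.7), Krt10 (5.52), Krt71 (96.4), Krt25 (48.9), Krt27 (45.7), Krt87 (20.0), Krt28 (19.2), Krt33a (20.3), Krt75 (16.2), Krt31 (17.5), Krt83 (16.1) and Krt35 (10.1), and the sums of the epidermal (218) and hair keratins (383). Krt7 stood out in iKO 3 (0.566 CPM). Among Ctrl libraries, Ctrl 5 stood out in Krt8 (0.0551 CPM), Krt19 (0.386) and the simple keratin sum (0.441), Ctrl 4 in Krt18 (0.0582) and Ctrl 1 in Krt83 (0.727). The values of Krt8 and Krt18 in Ctrl rest on 2 counts each.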

How the results depend on the processing

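The number of keratins higher in iKO, 6, was 2 with DESeq2, which gave no p-value for the other 11 of 13. It was 0 with limma voom, 1 with the replicate block (Krt14), and 3 without iKO 2 and iKO 3. Leaving out single libraries gave 3 to 8, with 3 without iKO 2, Ctrl 1 or Ctrl 5 (each time Krt5, Krt14 and Krt80) and 8 without iKO 5 or iKO 6, where Krt75 and Krt35 were added. It was 8 without the low-count filter and 4 without Ctrl 5 and iKO 1, chosen after seeing the data. Whether the replicate numbers pair the libraries is not known from the labels. Same-numbered deviations had r of -0.175 to 0.265, and 1 of 6 iKO libraries matched its own number best. Ctrl 5 was the best match of every iKO library except iKO 1, so these values cannot tell whether libraries are paired. The log2 ratio of mean epidermal sums, 3.76, was 1.68 to 3.99 with a library left out and 1.43 without iKO 2 and iKO 3. That of hair sums, 3.21, was -0.16 to 3.47 and -0.54. Signs turned under these settings, and the cause was not tested. With single libraries left out, log2 fold changes ran from -0.33 to 3.37 for Krt71, -0.070 to 3.27 for Krt25, -0.17 to 4.45 for Krt27, -0.65 to 1.70 for Krt87, -0.21 to 3.39 for Krt28, -0.0052 to 4.00 for Krt31 and -0.19 to 0.46 for Lgals7, in each case lowest and below 0 only without iKO 2. Without iKO 2 and iKO 3 it was -0.65 for Krt71, -0.26 for Krt25, -0.67 for Krt27, -0.77 for Krt87, -0.90 for Krt28, -2.45 for Krt31, -0.20 for Krt75, -0.16 for Krt17, -0.19 for Lgals7 and -0.51 for Tchh. Under the block it was -0.73 for Krt71, -0.50 for Krt25, -0.11 for Krt87 and -0.058 for Krt28, and with voom -1.68 for Krt71, -1.81 for Krt25 and -0.91 for Krt27. Of the lists, keratinocyte markers higher in iKO, 7, were 3 with DESeq2, 1 with voom and 4 under the block, desmosome genes, 9, were 4 with voom, barrier genes, 4, were 2 with voom, and epithelial factors, 5, were 2 with voom and 1 under the block or without the filter. Depth limits the simple keratins to counts, and 40 of 53 keratins did not pass the low-count filter.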

Other observations

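Of 8 skeletal muscle markers, 6 were tested and 3 rose, where 25.0% of all tested genes rose. Only 1 rose without iKO 2 or iKO 5, and 5 rose without iKO 1. They summed to 6.29, 59.6, 5.38, 10.7, 54.5 and 6.81 CPM in iKO 1 to 6 and 5.00 to 7.43 CPM in Ctrl, high in iKO 2 and iKO 5, which also had the highest Krt19. Of 8 endothelial markers, all tested, 3 rose and 1 fell, where 25.0% of all tested genes rose and 21.4% fell. They summed to 21.9 to 60.7 CPM in iKO and 22.6 to 31.1 CPM in Ctrl. Fat and sebaceous markers summed to 2.23 to 12.4 CPM in iKO and 1.90 to 4.60 CPM in Ctrl, with 1 of 8 tested, Fabp4, which rose by 1.19 (edgeR adjusted p = 0.00774).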
